A study of Homo sapiens with 4 samples.

Results

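YAP1, WWTR1 (the gene of TAZ), the TEAD transcription factors, the kinases and scaffolds of the Hippo pathway, and the genes that YAP and TAZ are known to switch on were followed in melanoma cells after knockdown of LINC00622, a long noncoding RNA. The group was a list of 33 gene names, chosen by known function and with earlier results of these data known. Of these names, 32 were matched among the 17755 genes of the expression table. The RNA of TGFB2 was not analysed here, and that gene enters only the promoter counts below. By role, the measured genes are 10 pathway components (YAP1, WWTR1, TEAD1, TEAD2, TEAD3, TEAD4, VGLL4, LATS1, NF2 and SAV1), 5 feedback regulators, which act in the pathway and are also its known targets (LATS2, PTPN14, AMOTL1, AMOTL2 and AJUBA), and 17 further targets. The human melanoma lines SK-MEL-28 and A375, both established, received either siNC, a control siRNA, or siLINC00622, an siRNA that targets LINC00622, when the cultures were about 70% confluent. All 4 groups spent 6 h in DMEM without serum and then 24 h in DMEM with 10% serum. Each of the 4 combinations of line and siRNA gave 1 library, so no difference within a cell line has a replicate check. The question was whether the pathway's own components and its targets differed between siLINC00622 and siNC in each line, gene by gene.

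In the Hippo pathway, the kinases MST1 and MST2 with their scaffold SAV1 activate the kinases LATS1 and LATS2, with help from NF2 (merlin) at the cell membrane. LATS1 and LATS2 phosphorylate YAP and TAZ, which then stay in the cytoplasm or are degraded. Without that phosphorylation YAP and TAZ enter the nucleus, bind a TEAD factor on DNA and raise the transcription of genes such as CCN1, CCN2 and ANKRD1, as well as of several genes that restrain the pathway in turn. YAP and TAZ are regulated largely by where the protein is and how long it lasts, which RNA levels do not show. In melanoma cells, high YAP and TAZ activity is known from undifferentiated, invasive cell states.

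The libraries held between 31269923 and 36384819 counts, of which between 99.7% and 99.8% lay on the listed genes. The targeted RNA, LINC00622 (ENSG00000260941), went from 309 counts with siNC to 135 with siLINC00622 in SK-MEL-28 and from 135 to 86 in A375, which are log2 ratios of siLINC00622 over siNC of -1.21 and -0.84. Melanocytic markers were listed for 7 of 7 genes, with a summed level of 1914 and 2113 FPKM (a deposited level scaled for gene length and library size) in SK-MEL-28 and of 128 and 158 FPKM in A375. Most of the sum in A375 came from SOX10, at 118 and 149 FPKM, while PMEL, MLANA, DCT and TYR were at or below 2.35 FPKM there. Of the other marker lists, keratinocyte genes were listed for 2 of 4, fibroblast genes for 1 of 5, and immune and endothelial genes for 0 of 3 each. The fibroblast gene was LUM, with 803 and 892 counts in SK-MEL-28 and with 187 and 372 in A375, where its log2 ratio of 0.78 (interval 0.53 to 1.04) was past 1.5-fold. The keratinocyte genes summed to between 19.1 and 32.4 FPKM and were nearly equal between the siRNAs of a line. The part of these markers in the results below was not tested.

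The DNA word GGAATG, which TEAD factors bind, occurs close to the start of several of these genes. The promoter of CCN2, which encodes a secreted matricellular protein and is a widely used readout of YAP, holds 3 copies. Its 250 bases before the RefSeq start site are shown because they show how the word is spaced. They lie at chr6:131951373-131951622 on the minus strand of GRCh38.p14, and capitals mark GGAATG.
CCN2 promoter: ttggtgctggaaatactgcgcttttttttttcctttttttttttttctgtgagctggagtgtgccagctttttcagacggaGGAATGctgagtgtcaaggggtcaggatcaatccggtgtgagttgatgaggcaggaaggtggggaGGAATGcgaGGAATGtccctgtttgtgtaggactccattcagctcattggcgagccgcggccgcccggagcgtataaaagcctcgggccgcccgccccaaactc

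The copies in CCN2 begin 169, 104 and 95 bases before the start site. RefSeq promoters were listed for 26 of the 33 genes, and GGAATG was searched on both strands in the 250 bases before each start. It was found in 10 of the 36 promoters of these genes (27.8%), each of a different gene, and in 11.9% of all 35116 promoters. ASAP1, CRIM1, CCN1, DLC1, TEAD1, TEAD4 and ARHGEF17 had no listed promoter. The sites of the genes whose RNA is described below are given as windows of 30 bases, each read on the strand of its gene, with GGAATG or its reverse complement CATTCC in capitals. Start sites here are those of RefSeq, whereas the gene spans given further below come from GENCODE and can begin elsewhere. The windows of AMOTL2, PTPN14, AJUBA and NUAK2, and the ANKRD1 window at 128 bases, therefore lie inside the GENCODE span of their gene.
ANKRD1, chr10:90921290-90921319, minus strand, 220 bases before the start: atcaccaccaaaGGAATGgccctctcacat
ANKRD1, chr10:90921198-90921227, minus strand, 128 bases before the start: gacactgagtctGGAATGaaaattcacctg
AMOTL2, chr3:134374499-134374528, minus strand, 69 bases before the start: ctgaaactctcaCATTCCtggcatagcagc
PTPN14, chr1:214551785-214551814, minus strand, 200 bases before the start: cctcccgggccgCATTCCtccccgcccccg
AJUBA, chr14:22976884-22976913, minus strand, 59 bases before the start: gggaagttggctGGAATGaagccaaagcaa
THBS1, chr15:39581021-39581050, plus strand, 46 bases before the start: gaggaatccccaGGAATGcgagcgcccctt
NUAK2, chr1:205321746-205321775, minus strand, 18 bases before the start: ttataacaacttGGAATGctgtgctttact
YAP1, chr11:102110273-102110302, plus strand, 162 bases before the start: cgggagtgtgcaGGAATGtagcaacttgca

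NUAK2 held a further copy 197 bases before its start, and FOXF2 held 1 copy. The word TGANTCA, which AP-1 factors bind and which often lies near TEAD sites, was found in 3 of the 36 promoters (8.33%; ANKRD1, F3 and LATS1) against 6.57% of all promoters. A match of letters describes these windows only and is not evidence that a factor binds.

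The study's supplement lists a pair of siRNA target sequences in LINC00622, and the sources used here do not say which was sequenced. They are shown because the bases in capitals, which pair with bases 2 to 8 of the siRNA guide strand, can also match the 3′ UTR of other RNAs.
siLINC00622_1: ccctaaagaaaGTGAGAAa
siLINC00622_2: ggcaacctctaATTGACTt

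The word of siLINC00622_1 occurs in the longest annotated 3′ UTR of 2 of the 32 genes (6.25%; AJUBA and AMOTL1) and of 14.6% of 12368 genes. That of siLINC00622_2 occurs in 6 of the 32 (18.8%; LATS1, YAP1, PTPN14, ASAP1, DLC1 and AMOTL1) and in 11.6% of all. The stretch shown for PTPN14 lies at chr1:214355871-214355899 and that for AJUBA at chr14:22971265-22971293, both on the minus strand of GRCh38. The match within each stretch is in capitals.
PTPN14, siLINC00622_2: tttttcttagaATTGACTgctgtgagagt
AJUBA, siLINC00622_1: accttgttggaGTGAGAAatgttctgaaa

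Within each line, a gene was called lower or higher when siLINC00622 and siNC differed by over 1.5-fold and either library had at least 10 counts. All 32 genes passed that count minimum in both lines. In SK-MEL-28, 8 genes were lower (WWTR1, PTPN14, AMOTL2, ANKRD1, CCN1, CRIM1, IGFBP3 and DLC1), against a background of 6.49% of 15442 genes, and 1 was higher (GADD45B), against 4.56%. In A375, 2 were lower (ANKRD1 and GADD45B), against 4.34% of 16021 genes, and 0 were higher, against 4.52%. Of these calls, 1 in SK-MEL-28 and 0 in A375 fell on components. Because the list was chosen with earlier results of these data known, its shares here and below describe it and do not test it. The median log2 ratio in SK-MEL-28 was -0.05 over the components, -0.47 over the feedback regulators, -0.47 over the targets and 0.00 over all genes. The medians in A375 were 0.03, -0.19, -0.20 and 0.00 in the same order. Intervals given below are 95% Clopper-Pearson intervals, which cover counting error only. In these bulk libraries, fewer cells that express a gene and less RNA per cell cannot be told apart.

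**Figure D1:**
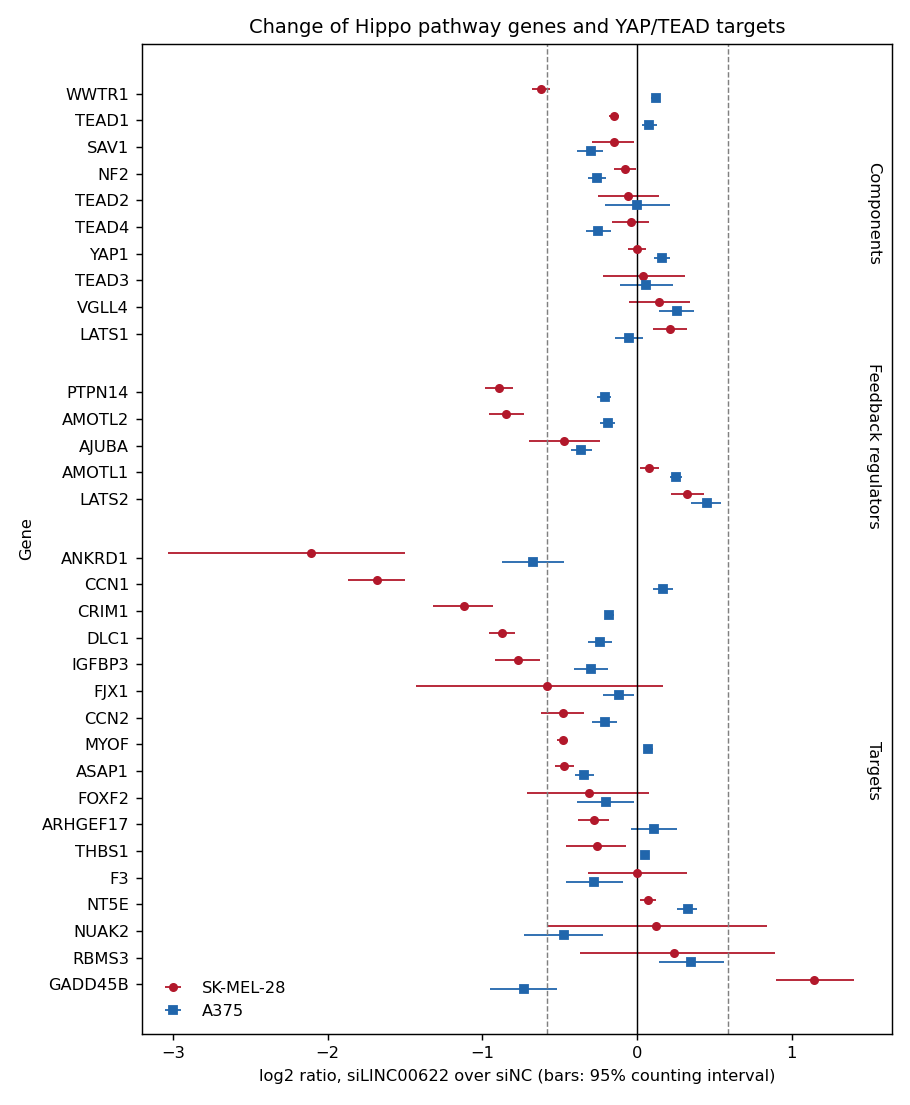
Log2 ratio of siLINC00622 over siNC for the 32 measured genes, ordered by role and by the ratio in SK-MEL-28 (circles, with A375 as squares). Bars are 95% counting intervals from 1 library per condition and dashed lines mark 1.5-fold. ANKRD1 and CCN1 have the lowest ratios in SK-MEL-28, at -2.11 and -1.68, and 8 circles lie below the lower dashed line against 2 squares.

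Among the components, the coactivator WWTR1 was past 1.5-fold in SK-MEL-28, and YAP1 was near its siNC level in both lines. YAP1 (ENSG00000137693, chr11:102110461-102233423, plus strand) encodes the coactivator itself. It had 4896 counts with siNC in SK-MEL-28 and 5010 with siLINC00622 (log2 ratio 0.00, interval -0.06 to 0.06). Its counts in A375 were 5861 and 7585 (log2 ratio 0.16, interval 0.11 to 0.21). The level of YAP1 thus differed by at most 1.12-fold in either line. WWTR1 (ENSG00000018408, chr3:149517235-149736714, minus strand), the paralogue of YAP1, had 6141 and 4090 counts in SK-MEL-28 (log2 ratio -0.62, interval -0.68 to -0.56). The A375 libraries held 18275 and 22989 counts (log2 ratio 0.12, interval 0.09 to 0.15). WWTR1 was therefore 1.53-fold lower with siLINC00622 in SK-MEL-28, just past the limit, and slightly higher in A375, with intervals on opposite sides of 0. WWTR1-AS1, which overlaps WWTR1 on the other strand, had between 11 and 52 counts in the 4 libraries, few beside those of WWTR1. On the length-scaled FPKM scale, YAP1 stood at 23.4, 23.2, 29.7 and 33 and WWTR1 at 22.2, 14.3, 70 and 75.6 in SK-MEL-28 siNC, SK-MEL-28 siLINC00622, A375 siNC and A375 siLINC00622. WWTR1 made up 48.7% of the sum of both coactivators in SK-MEL-28 with siNC, 38.1% there with siLINC00622, and 70.2% and 69.6% in A375.

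The TEAD factors, which bring YAP and TAZ to DNA, were close to their siNC levels in both lines. TEAD1, the most abundant of them in SK-MEL-28, had 16969 and 15625 counts there (log2 ratio -0.15, interval -0.18 to -0.12), and 5404 and 6613 in A375 (log2 ratio 0.08, interval 0.03 to 0.13). TEAD4, the most abundant in A375, had 1118 and 1114 counts in SK-MEL-28 (log2 ratio -0.04, interval -0.16 to 0.08), and 2658 and 2590 in A375 (log2 ratio -0.25, interval -0.33 to -0.17). TEAD2 and TEAD3 were lower in level, between 2.26 and 5.74 FPKM, and the intervals of their ratios held 0 in both lines. In each library the TEAD genes summed to between 57.8 and 69.3 FPKM. TEAD1 gave 69.1% of that sum in SK-MEL-28 with siNC and 67.3% with siLINC00622, while TEAD4 gave 59.4% and 54.1% in A375. The lines thus differed in which TEAD gene was in the majority, and the knockdown did not change which it was in either line.

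**Figure D2:**
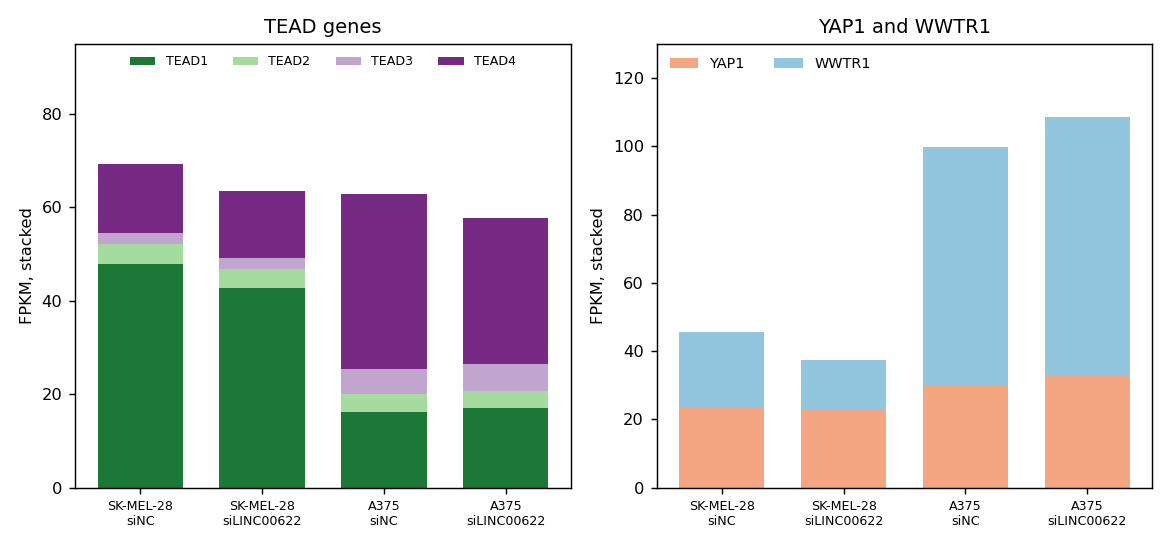
Deposited FPKM of the 4 TEAD genes (left) and of YAP1 and WWTR1 (right), stacked for each of the 4 libraries on a linear axis from 0. TEAD1 takes 69.1% of the TEAD sum in SK-MEL-28 siNC and TEAD4 takes 59.4% in A375 siNC, and the WWTR1 segment is shorter in SK-MEL-28 with siLINC00622 (14.3 FPKM) than with siNC (22.2 FPKM).

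The upstream components differed by less than 1.5-fold in both lines. SAV1, the scaffold of the MST kinases, had 960 and 882 counts in SK-MEL-28 (log2 ratio -0.15, interval -0.29 to -0.02), and 2237 and 2098 in A375 (log2 ratio -0.30, interval -0.39 to -0.22). NF2, the membrane scaffold for LATS, had ratios of -0.08 (SK-MEL-28) and -0.26 (A375). Both genes had intervals below 0 in both lines. LATS1, the kinase that phosphorylates YAP and TAZ, had 1194 and 1411 counts in SK-MEL-28 (log2 ratio 0.21, interval 0.10 to 0.32), and a ratio of -0.05 in A375 with an interval that held 0. VGLL4, which competes with YAP for TEAD, had ratios of 0.14 (SK-MEL-28) and 0.26 (A375). The library kit does not mark strand, and 18 of the 32 genes overlap an annotated gene on the other strand, for 6 of which that gene is also in the table. VGLL4 is 1 of the 6, with 402 and 454 counts in SK-MEL-28 beside 465 and 487 of ATG7, so its values are uncertain where they overlap.

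The feedback regulators split into 3 genes below siNC and 2 above it, with the same sign in both lines for each gene. PTPN14 (ENSG00000152104, chr1:214348696-214552449, minus strand) encodes a phosphatase that binds YAP and holds it in the cytoplasm. Its count in SK-MEL-28 was 3021 with siNC and 1664 with siLINC00622 (log2 ratio -0.89, interval -0.98 to -0.80). Its counts in A375 were 6909 and 6887 (log2 ratio -0.21, interval -0.26 to -0.17). AMOTL2 (ENSG00000114019, chr3:134355874-134375479, minus strand), an angiomotin that sequesters YAP at cell junctions, had 1719 and 976 counts in SK-MEL-28 (log2 ratio -0.85, interval -0.96 to -0.73). Its counts in A375 were 6869 and 6955 (log2 ratio -0.19, interval -0.24 to -0.14). In A375 the raw counts of PTPN14 and AMOTL2 were nearly equal between the siRNAs, and their ratios are below 0 because the siLINC00622 library was deeper. AJUBA, a LIM protein that inhibits LATS, had 370 and 273 counts in SK-MEL-28 (log2 ratio -0.47, interval -0.70 to -0.24), and 3450 and 3116 in A375 (log2 ratio -0.36, interval -0.43 to -0.29).

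LATS2 and AMOTL1 went the other way. LATS2 (ENSG00000150457, chr13:20973032-21061547, minus strand), the second LATS kinase, had 1238 and 1583 counts in SK-MEL-28 (log2 ratio 0.32, interval 0.22 to 0.43). In A375 it had 1566 and 2468 counts (log2 ratio 0.45, interval 0.35 to 0.54), the highest of the 32 genes in that line. AMOTL1, another angiomotin, had ratios of 0.08 (interval 0.02 to 0.14) in SK-MEL-28 and 0.25 (interval 0.21 to 0.29) in A375. None of the ratios of LATS2 and AMOTL1 reached 1.5-fold. AMOTL1 and AMOTL2 thus lay on opposite sides of siNC in both lines.

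Among the targets, the largest differences in SK-MEL-28 were in ANKRD1 and the matricellular gene CCN1, and those in A375 were in GADD45B and ANKRD1. ANKRD1 (ENSG00000148677, chr10:90912096-90921276, minus strand) encodes an ankyrin repeat protein of the nucleus and sarcomere. Its count in SK-MEL-28 was 87 with siNC and 19 with siLINC00622 (log2 ratio -2.11, interval -3.03 to -1.50), or 4.33-fold lower. Its A375 counts were 492 and 357 (log2 ratio -0.67, interval -0.87 to -0.47), or 1.59-fold lower. ANKRD1 was the only 1 of the 32 genes called in the same direction in both lines, and its count in SK-MEL-28 was small, which makes that interval wide. In FPKM it stood at 1.47 and 0.311 in SK-MEL-28 and at 8.79 and 5.48 in A375.

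CCN1 and CCN2, secreted matricellular proteins of the same family that are the usual readouts of YAP and TAZ, differed in pattern. CCN1 (ENSG00000142871, chr1:85580761-85583962, plus strand) had 998 and 318 counts in SK-MEL-28 (log2 ratio -1.68, interval -1.87 to -1.50), or 3.19-fold lower. The A375 counts of CCN1 were 3610 and 4684 (log2 ratio 0.17, interval 0.10 to 0.23). CCN1 was thus far below siNC in SK-MEL-28 and slightly above it in A375. CCN2 (ENSG00000118523, chr6:131948176-131951373, minus strand), whose promoter is printed above, had 1019 and 746 counts in SK-MEL-28 (log2 ratio -0.48, interval -0.62 to -0.34). Its count in A375 was 2307 with either siRNA, which gives a ratio of -0.21 (interval -0.29 to -0.13) after scaling. CCN2 was lower in both lines but within 1.5-fold.

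CRIM1, DLC1 and IGFBP3 were lower by over 1.5-fold in SK-MEL-28 and by less in A375. CRIM1 (ENSG00000150938, chr2:36355926-36551135, plus strand), a transmembrane protein with cysteine-rich repeats, had 686 and 321 counts in SK-MEL-28 (log2 ratio -1.12, interval -1.32 to -0.93), and 17996 and 18356 in A375 (log2 ratio -0.18, interval -0.21 to -0.15). FEZ2, which overlaps CRIM1 on the other strand, had 1059 and 549 counts in SK-MEL-28, a ratio of -0.98, and 1565 and 1467 in A375, a ratio of -0.30. In the region where they overlap the reads of CRIM1 and FEZ2 cannot be told apart, so the ratio of CRIM1 in SK-MEL-28 is uncertain to that extent. DLC1 (ENSG00000164741), a GTPase-activating protein, had 3060 and 1709 counts in SK-MEL-28 (log2 ratio -0.87, interval -0.96 to -0.79), and 2531 and 2477 in A375 (log2 ratio -0.24, interval -0.32 to -0.16). IGFBP3 (ENSG00000146674, chr7:45912245-45921874, minus strand), which binds insulin-like growth factors outside the cell, had 1105 and 660 counts in SK-MEL-28 (log2 ratio -0.77, interval -0.92 to -0.63), and 1380 and 1294 in A375 (log2 ratio -0.30, interval -0.41 to -0.19). All 3 genes had intervals below 0 in both lines.

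GADD45B (ENSG00000099860, chr19:2476122-2478259, plus strand), a stress-induced gene that acts upstream of p38 and JNK, was called in both lines and in opposite directions. Its count in SK-MEL-28 was 194 with siNC and 440 with siLINC00622 (log2 ratio 1.14, interval 0.90 to 1.40), or 2.21-fold higher. In A375 it had 456 and 317 counts (log2 ratio -0.73, interval -0.95 to -0.52), or 1.66-fold lower. It was the lowest of the 32 ratios in A375 and the highest in SK-MEL-28.

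Of the abundant targets, MYOF and THBS1 had small ratios of opposite sign in the lines. MYOF, a ferlin of the plasma membrane and the highest target in SK-MEL-28 with siNC at 54.4 FPKM, had 15282 and 11176 counts there (log2 ratio -0.48, interval -0.52 to -0.45), and 20065 and 24439 in A375 (log2 ratio 0.07, interval 0.05 to 0.10). THBS1, the secreted glycoprotein thrombospondin 1, had 469 and 400 counts in SK-MEL-28 (log2 ratio -0.26, interval -0.46 to -0.07), and 70380 and 84214 in A375 (log2 ratio 0.05, interval 0.03 to 0.06). With 246 and 253 FPKM it was the highest target in A375. ASAP1, a GTPase-activating protein for ARF GTPases, was lower by less than 1.5-fold in both lines, with 5228 and 3865 counts in SK-MEL-28 (log2 ratio -0.47, interval -0.53 to -0.41), and 4450 and 4074 in A375 (log2 ratio -0.34, interval -0.40 to -0.28). NT5E, the ectonucleotidase CD73, had ratios of 0.07 (interval 0.02 to 0.12) and 0.33 (interval 0.26 to 0.39), so it lay above siNC in both.

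The remaining targets had few counts in SK-MEL-28 or small ratios. FJX1, a secreted protein kinase relative of the Four-jointed family, had 36 and 24 counts in SK-MEL-28, a log2 ratio of -0.58 whose interval of -1.43 to 0.17 held 0, and a ratio of -0.12 in A375. NUAK2, an AMPK-related kinase, had 34 and 38 counts in SK-MEL-28, with an interval that held 0, and 278 and 231 in A375 (log2 ratio -0.47, interval -0.73 to -0.22). RBMS3, an RNA-binding protein, had 41 and 50 counts in SK-MEL-28, a ratio of 0.24 with an interval that held 0, and 328 and 483 in A375, a ratio of 0.35 (interval 0.14 to 0.56). For these 3 genes a difference was not detectable in SK-MEL-28 at this depth. F3, which encodes tissue factor, had ratios of 0.00 and -0.28, FOXF2, a forkhead factor, had -0.31 and -0.20, and ARHGEF17, a guanine nucleotide exchange factor, had -0.28 and 0.11, in SK-MEL-28 and A375.

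**Figure D3:**
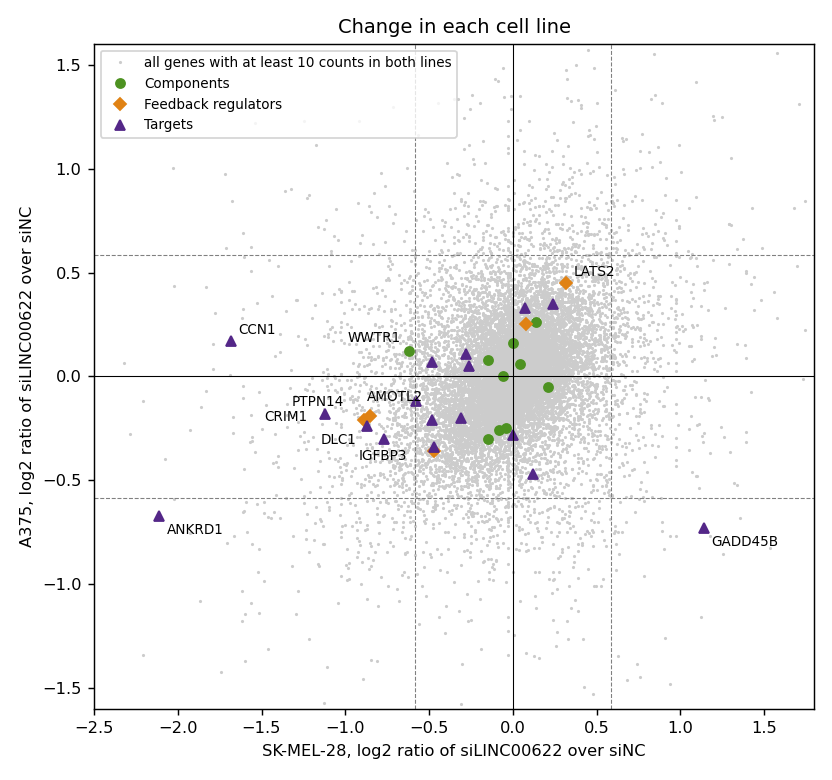
Log2 ratio of siLINC00622 over siNC in SK-MEL-28 (horizontal) and A375 (vertical) for the 32 genes by role, over the 14721 genes with at least 10 counts in both lines (grey, those within the axes). Dashed lines mark 1.5-fold. ANKRD1 lies past the dashed lines at lower left (-2.11 and -0.67), CCN1 is at -1.68 and 0.17, and GADD45B is at lower right (1.14 and -0.73).

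Set side by side, the lines agreed in direction for some of these genes and differed for others. The counting interval was below 0 in both lines for 11 of the 32 genes, which was 34.4% against 11.9% of the 14721 genes with at least 10 counts in both lines. They were the feedback regulators PTPN14, AMOTL2 and AJUBA, the targets ANKRD1, CCN2, CRIM1, IGFBP3, ASAP1 and DLC1, and the components SAV1 and NF2. It was above 0 in both lines for 3 genes (LATS2, AMOTL1 and NT5E; 9.38% against 11%). It lay on opposite sides of 0 for 6 (WWTR1, TEAD1, CCN1, GADD45B, MYOF and THBS1; 18.8% against 6.4%). For 25 of the 32 genes (78.1%) the ratio was lower in SK-MEL-28 than in A375, as it was for 52.2% of all genes. The intervals of the lines did not overlap for 21 of the 32 (65.6%), against 26.5% of all genes. Outside the list, among genes described below, intervals were below 0 in both lines for 8 of 20 other Hippo components (40%). The same held for 1 of 7 other YAP and TEAD targets (14.3%). A larger share than that of all genes was thus not particular to the list. Narrow intervals of abundant genes enter these shares, and with 1 library per condition the difference between the lines could not be tested.

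The treatment was then tested across both lines in a fit of all 4 libraries with the cell line as a block, by edgeR's quasi-likelihood test with Benjamini-Hochberg adjustment over 16258 genes. The lines are the only replicates in it, with a residual degree of freedom of 1, so it asks for changes that the lines share. Of the 32 genes, 0 passed an adjusted p of 0.05, against a background of 0.148% of genes lower and 0.08% higher, and 0 passed by DESeq2 or limma-voom. At an unadjusted p below 0.05 there were 10 of 32, against 14.6% of all genes tested, 9 of them lower and 1 higher. By DESeq2 that count was 8, against 7.18% of all genes, and by limma-voom 9, against 15.5%. The 10 were 4 of the 5 feedback regulators (PTPN14, AMOTL2, AJUBA and, higher, LATS2), 6 of the 17 targets (ANKRD1, CCN2, CRIM1, IGFBP3, ASAP1 and DLC1) and 0 of the 10 components. No member is therefore reported as changed across the lines. The targeted LINC00622 did not pass in this edgeR fit either, with a log2 change of -1.05 (SE 0.20) and an adjusted p of 0.113. Not passing this test therefore does not show that a gene was unchanged.

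The smallest adjusted p in this edgeR fit was that of ASAP1, 0.136, with a log2 change of -0.39 (SE 0.09). LATS2 had a change of 0.40 (SE 0.10) and an adjusted p of 0.156, and AJUBA one of -0.39 (SE 0.10) and 0.17. These are genes whose ratios had the same sign in both lines. ANKRD1, with the largest change of -1.14 (SE 0.33), had an adjusted p of 0.21. CCN1, with a change of -0.65 (SE 0.39), had an adjusted p of 0.496, its direction being opposite in the lines. YAP1 had a change of 0.09 (SE 0.09) and WWTR1 one of -0.23 (SE 0.17), with adjusted p-values of 0.69 and 0.585.

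Beyond the list, 22 of 24 other Hippo components and 7 of 8 other YAP and TEAD targets were matched and tested, and 0 of each passed an adjusted p of 0.05 in the same edgeR fit. At an unadjusted p below 0.05 there were 4 of the 22 components (18.2%; AMOT, RASSF1 and STRN lower and MAP4K4 higher), near the 14.6% of all genes, and 0 of the 7 targets. AMOT, the angiomotin that gave the family its name, had 2723 and 1551 counts in SK-MEL-28 (log2 ratio -0.84, interval -0.93 to -0.75), near that of AMOTL2, and a ratio of -0.07 in A375. STRN, a striatin subunit of the phosphatase complex that dephosphorylates the MST kinases, had 2674 and 1554 counts in SK-MEL-28 (log2 ratio -0.81, interval -0.91 to -0.72), and 2876 and 2098 in A375 (log2 ratio -0.66, interval -0.75 to -0.58). It was the component nearest to the threshold, with a change of -0.73 (SE 0.10) and an adjusted p of 0.0568 by edgeR. It passed by DESeq2 (adjusted p = 0.000224), limma-voom (0.0478) and edgeR without a filter (0.0254), and did not pass with library totals (0.0942) or without the cell line block (1). VGLL2, a TEAD cofactor, had 69 and 54 counts in A375 (log2 ratio -0.55, interval -1.10 to -0.03), and 0 counts in SK-MEL-28.

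Of the other targets, CCDC80, an extracellular matrix protein, had a log2 ratio of -0.58 (interval -0.93 to -0.26) in SK-MEL-28, and BIRC5, the mitotic protein survivin, had -0.30 (interval -0.37 to -0.23) in A375. In SK-MEL-28, 7 of the 7 matched had ratios below 0, as had 50.5% of all genes, and 6 had intervals below 0 (BIRC5, at -0.01, did not), as had 24% of all genes, with a median of -0.54, while the median was -0.01 in A375. Among the other components, 20 reached 10 counts in SK-MEL-28, with a median there of -0.21. Ratios were below 0 for 15 of these 20 (75%). Their intervals lay below 0 for 13 (65%) and above 0 for 4. For the 22 that reached 10 counts in A375, the median was -0.06. Of those 22, 11 had intervals below 0 (50%, against 22% of all genes) and 4 above. Components outside the list thus also lay mostly below siNC in SK-MEL-28.

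The lines differed far more from each other than the siRNAs did within a line. By edgeR's quasi-likelihood test of the cell line in the same fit, 25 of the 32 genes were higher in A375, against a background of 35.1% of 16258 genes, and 4 were lower, against 33.8%. The median log2 difference, A375 minus SK-MEL-28, was 1.10 over the 32 genes and 0.03 over all genes. Lower in A375 were TEAD1, ARHGEF17, NT5E and ASAP1, while TEAD2, GADD45B and DLC1 were not called in either direction. All 5 feedback regulators were higher in A375. The test sets 2 libraries of each line against each other, with the siRNAs as the only spread within a line. Melanocytic markers differed in the opposite direction, as given above, and their part in the difference was not tested.

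**Figure D4:**
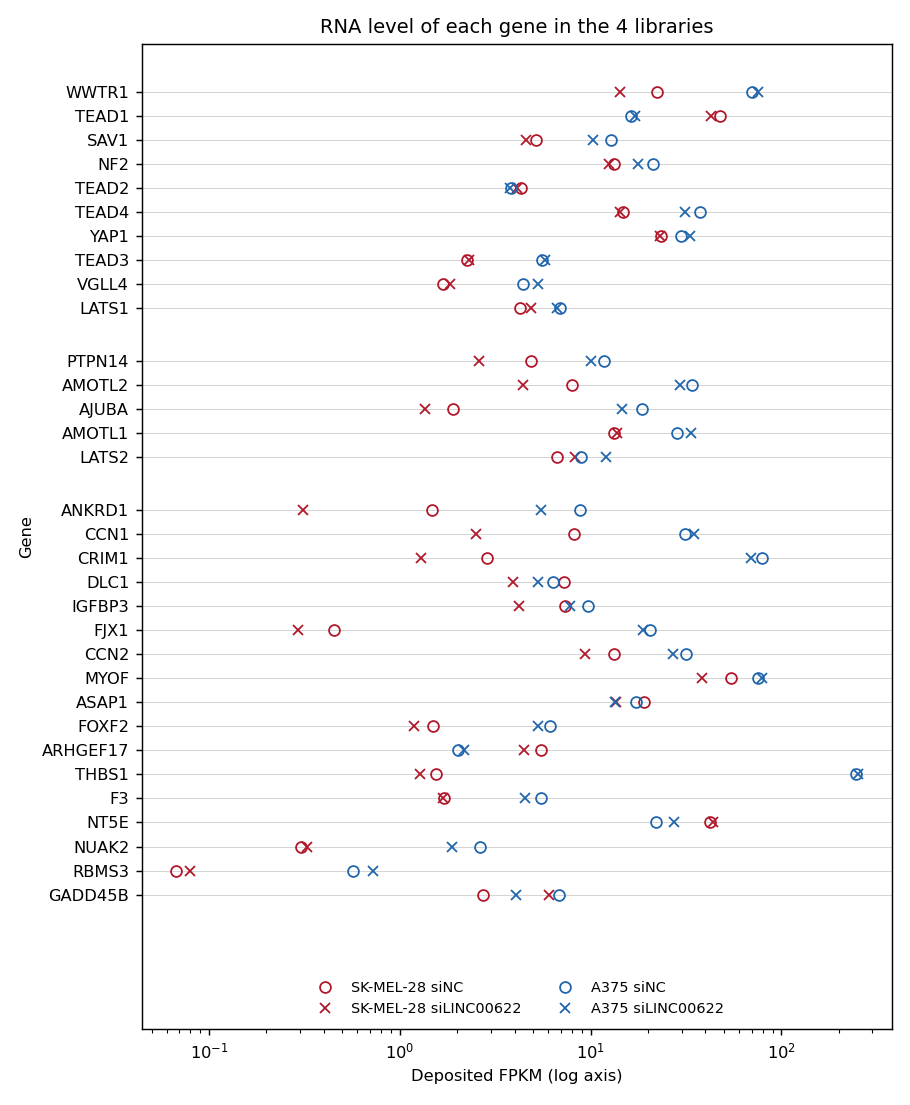
Deposited FPKM of the 32 genes in the 4 libraries on a log axis, in the order of the plot of log2 ratios (circles siNC, crosses siLINC00622). The A375 values lie to the right of the SK-MEL-28 values for most genes, most widely for THBS1 (246 against 1.55 FPKM with siNC), and to the left for TEAD1 (16.2 against 47.9 FPKM).

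THBS1 differed most between the lines, from 1.55 and 1.28 FPKM in SK-MEL-28 to 246 and 253 in A375, a log2 difference of 7.30 (SE 0.12, edgeR adjusted p = 4.35e-07). FJX1 stood at 0.452 and 0.292 FPKM in SK-MEL-28 but at 20.6 and 18.9 in A375, a difference of 5.57 (SE 0.17). CRIM1 stood at 2.85 and 1.29 FPKM and at 79.2 and 69.4, a difference of 5.08 (SE 0.24). For these 3 targets every A375 library was above every SK-MEL-28 library by a wide margin. AJUBA, at 1.9 and 1.36 against 18.7 and 14.6 FPKM, had the largest difference of the feedback regulators, 3.19 (SE 0.11, adjusted p = 1.86e-06). The readouts ANKRD1, CCN1 and CCN2 were higher in A375 by 3.0 (SE 0.35), 2.65 (SE 0.40) and 1.23 (SE 0.11).

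Among the components, WWTR1 was higher in A375 by 1.86 on the log2 scale (SE 0.17, edgeR adjusted p = 0.000122), and TEAD1 was the only component lower there, by a log2 difference of -1.62 (SE 0.09, adjusted p = 1.54e-05). TEAD3 and TEAD4 were higher in A375 by 1.14 (SE 0.14) and 1.06 (SE 0.10), and VGLL4 and SAV1 by 1.29 (SE 0.11) and 1.06 (SE 0.10). YAP1 differed by 0.26 (SE 0.09, adjusted p = 0.0382). Each library was also left out in turn, in a smaller fit with the cell line as its only term, in which the spread comes from the line that keeps 2 libraries and the lone library of the other line is assumed to vary like them. Calls over all genes fell as well in these fits, for example from 5494 lower and 5699 higher to 3957 and 4114 without A375 siNC, so a lost call may reflect the smaller design. The adjusted p of YAP1 was then between 0.0866 and 0.358. The calls of LATS1, LATS2, NF2, ASAP1, IGFBP3 and MYOF were lost without at least 1 library, and those of GADD45B and DLC1 appeared without SK-MEL-28 siLINC00622, with adjusted p-values of 0.0264 and 0.0258. Without A375 siNC the calls of LATS1 (adjusted p = 0.114), LATS2 (0.0706), NF2 (0.143), ASAP1 (0.183), IGFBP3 (0.508) and MYOF (0.0682) were all lost. Without A375 siLINC00622 those of LATS1 (0.0937), LATS2 (0.77), ASAP1 (0.717), IGFBP3 (0.201) and MYOF (0.102) were lost, without SK-MEL-28 siNC those of LATS1 (0.15), LATS2 (0.495) and ASAP1 (0.924), and without SK-MEL-28 siLINC00622 those of NF2 (0.0574) and IGFBP3 (0.673). The other 22 called genes had an adjusted p below 0.05 in each of these smaller fits.

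The sequence features printed above were last set beside the ratios as a description. In SK-MEL-28 the median log2 ratio was -0.47 over the 9 measured genes with GGAATG in a promoter, 3 of which were lower by over 1.5-fold (ANKRD1, PTPN14 and AMOTL2), and 0.02 over the 16 with a listed promoter and no match, of which 2 were lower and 1 higher. The medians in A375 were -0.21 and 0.03. This split follows role in part. YAP1 was the only component with the word, while VGLL4, WWTR1, TEAD2, TEAD3, LATS1, SAV1 and NF2 had a listed promoter without it. CCN1, CRIM1 and DLC1, called in SK-MEL-28, had no listed promoter and are in neither group. The part of the word in the ratios was not tested. CCN2 with 3 copies of GGAATG had a ratio nearer 0 in SK-MEL-28 (-0.48) than AMOTL2 (-0.85) and PTPN14 (-0.89) with 1 copy each, and YAP1 and NUAK2 carried the word with ratios of 0.00 and 0.12 in SK-MEL-28. Genes with a match to either siRNA's seed in the 3′ UTR were 7, with a median of -0.47 (SK-MEL-28) and -0.21 (A375), and the 25 without had medians of -0.15 and -0.12. Of the 8 genes lower by over 1.5-fold in SK-MEL-28, PTPN14 and DLC1 carry a seed match and the other 6 do not. ANKRD1 and CCN1, with the lowest ratios, are among those without.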

How the data were processed

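The genes and lists were chosen with earlier results of these data known. Poly(A) RNA of 4 libraries, 1 per group of the labels, was sequenced with paired-end reads on an Illumina instrument with a kit that does not mark strand. The submitters' processing notes name hg19, HISAT, HISAT2, TopHat2 and Bowtie2, with no role or order; the counting tool and the annotation are not given in the sources used here. The authors deposited whole-number counts per gene without normalization. Library totals were taken from the ratio of these counts to the CPM columns that the authors supplied. Levels between genes were read from the authors' FPKM columns, which correct for gene length. The deposited TPM columns were not used.

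Counts were scaled within a line by TMM (edgeR 4.0.16, R 4.3.3) on the library totals, and log2 ratios used a prior count of 2. Replicates were not available, so the conditions could not be tested within a line (an alternative call rule used a p at a dispersion set by hand), and a gene was called past 1.5-fold with at least 10 counts in either library, the study's fold limit. The study also required a P below 0.05, which the calls here do not, so the calls are not comparable with its gene lists. Across lines, edgeR's quasi-likelihood test used treatment and cell line as terms, filterByExpr and Benjamini-Hochberg adjustment. The code was tested on simulated data. Every listed gene that was matched is reported. Of further pathway genes, the 2 of each list and line with the largest ratio and at least 50 counts are named, with values, except 1 that is not reported here. Alternatives used DESeq2 1.42.0, limma 3.58.1, other scalings, prior counts and filters. The files hold no coordinates: positions and 3′ UTRs come from GENCODE 29 on GRCh38 by Ensembl identifier (32 of 32 matched), and promoters from RefSeq on GRCh38.p14 by symbol. Calculations other than these used Python 3.11.15.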

Additional observations from a re-analysis of the deposited data

Results flagged for a closer look

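GADD45B had a log2 ratio of siLINC00622 over siNC of 1.14 in SK-MEL-28 and of -0.73 in A375, each past 1.5-fold and in opposite directions under the same contrast. With 1 library per condition the difference between the lines was not tested.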

How the results depend on the processing

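Within the lines, requiring in addition p below 0.05 in edgeR's exact test at an assumed dispersion of 0.1 left 2 genes lower in SK-MEL-28 (ANKRD1 and CCN1), 0 higher in SK-MEL-28 and 0 lower in A375, in place of 8, 1 and 2. That p rests on a dispersion set by hand with 1 library per arm, so it does not single out the genes left as the differences that hold. Every other scaling, prior count and filter that was planned kept the counts within 1.5 times, and the medians of components and targets moved by at most 0.03, except that ratios of FPKM + 1 put the median of targets in SK-MEL-28 at -0.25 in place of -0.47. By FPKM + 1 the ratios of 5 genes in SK-MEL-28 moved past their counting intervals, all toward 0 (ANKRD1 to -0.91 and CCN1 to -1.38, the others CRIM1, DLC1 and PTPN14), and 1 in A375 (RBMS3 to 0.13). No called gene changed direction. Across all genes the paired treatment test called 24 lower and 13 higher by edgeR, 162 and 151 by DESeq2, 35 and 29 by limma-voom, 64 and 57 without a filter, 0 and 1 with library totals, and 0 and 0 without the cell line block, where 28 genes had an unadjusted p below 0.05. Between the lines, 29 of 32 genes were called, 25 by DESeq2, 28 with library totals, and from 22 to 28 when 1 library was left out, in a smaller fit with the cell line as its only term. Library totals moved the median difference of all genes from 0.03 to 0.20, and ASAP1 was then not called (adjusted p = 0.418). The labels carry no replicate numbers, so the cell line alone served as the block. Leaving a library out of the treatment test leaves 0 residual degrees of freedom, so it was not run. Genes with few counts in SK-MEL-28 are limited by depth: FJX1, NUAK2 and RBMS3 had at most 50.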
